A study of Mus musculus with 24 samples.

Results

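Mice given the agent CBLB502 alone were compared with mice given nothing, in kidney. CBLB502 is a protein derived from bacterial flagellin that activates the receptor TLR5, and the question is what it did to gene expression in the organ by itself, with no cisplatin given. The comparison uses 6 of the series' 24 RNA sequencing libraries, 3 from CBLB502 kidneys and 3 from control kidneys, taken by the labels of tissue and treatment. All groups are kidney of C57BL/6 mice, and neither the sex nor the age of the animals is given. The CBLB502 group received 0.2 mg/kg and was collected at 72 h. The control group is labelled as untreated, and the labels name no vehicle and no collection time for it. Further groups of 3 kidney libraries received cisplatin at 20 mg/kg, or CBLB502 30 min before cisplatin, called the combination here, and these 6 libraries serve only to estimate the spread and to show where the CBLB502 libraries stand. No label states whether each library is a mouse of its own. The p-values therefore speak to the variation among libraries as deposited, and some of that may be technical. The CBLB502 libraries carry column numbers 4, 5 and 6 and the control libraries 1, 2 and 3.

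TLR5 sits on the surface of epithelial and myeloid cells. When flagellin binds it, the adaptor MYD88 and kinases of the IRAK family are engaged, TRAF6 is activated, and the transcription factor NF-kB enters the nucleus and switches on cytokines, chemokines and its own inhibitors. In the kidney, the tubule carries most of the transport work: the proximal tubule reabsorbs filtered solutes and secretes drugs and organic ions, the thick ascending limb and distal convoluted tubule recover salt, and the collecting duct adjusts water and acid. Podocytes form the filter at the start of the tubule.

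The 2 groups differ in kind of library before any gene is compared. Mitochondrial genes took 13.27%, 14.219% and 13.358% of counts in CBLB502 libraries 4, 5 and 6, against 68.963%, 60.693% and 64.411% in control libraries 1, 2 and 3. The means were 13.62% ± 0.524 with CBLB502 and 64.69% ± 4.14 in control (SD, n = 3 each; exact permutation test, two-sided, p = 0.1, the smallest that 3 against 3 libraries allow). A cluster of 7 pseudogenes on chromosome 1 (24611535 to 24616197), nuclear copies of mitochondrial sequence, took a further 4.367% ± 0.0932 with CBLB502 and 21.17% ± 0.925 in control. The CBLB502 libraries held 54.09 to 58.25 M counts (M for mega) and the control libraries 52.85 to 55.23 M, so the counts left for all other genes were 44 to 47.9 M with CBLB502 and 5.05 to 10.14 M in control. These 37 mitochondrial genes and 7 pseudogenes were left out of library sizes and tests. The cisplatin and combination kidney libraries were closer in kind to the CBLB502 libraries, with 6.315% to 10.301% and 7.487% to 7.801% mitochondrial counts. They held 64.03 to 68.6 M and 63.13 to 68.83 M counts outside mitochondrial genes and pseudogenes. The control libraries thus differ in kind from all 9 treated kidney libraries. Treatment and kind of library cannot be told apart in any result below.

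**Figure D1:**
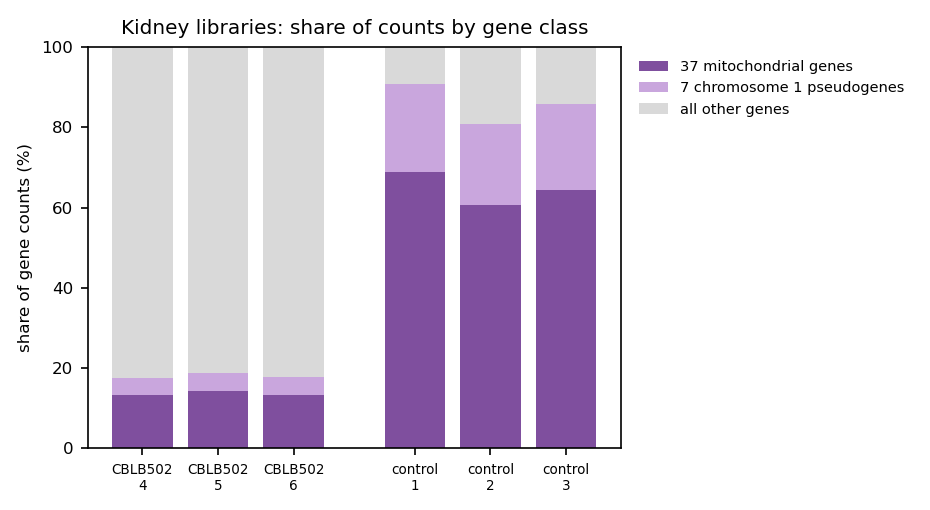
Share of gene counts in each CBLB502 library (4, 5 and 6) and each control library (1, 2 and 3), in percent, stacked by gene class. Mitochondrial genes and their chromosome 1 copies fill a small share of each CBLB502 library and most of each control library.

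Transcripts of other tissues also set the libraries apart. A list of 13 spermatid genes, some of them for sperm chromatin and tail proteins, was picked after their values had been seen. It summed to 3.13, 3.399 and 3.32 CPM in CBLB502 libraries, against 313, 129 and 172 CPM in control libraries. The protamine gene Prm2 had 54.8, 21.8 and 26.04 CPM (counts per M of library size, scaled by TMM, the trimmed mean of M-values) in control libraries, and no count in any CBLB502, cisplatin or combination kidney library. Of the 13 genes, 12 had no count in any CBLB502 library. In all, 133 tested genes had no count in the CBLB502 libraries and at least 10 counts in every control library. In the other direction 411 tested genes had no count in the control libraries and at least 10 counts in every CBLB502 library. The control libraries are shallower outside mitochondrial genes. Both sets were picked by their counts in these libraries, so calls among them are no further result. Adipocyte markers summed to 282, 385 and 522 CPM in CBLB502 libraries, against 8117, 287 and 2904 CPM in control libraries. Adrenal cortex markers summed to 59.98, 70.1 and 79.39 CPM in CBLB502 libraries, against 117.5, 88.14 and 64.92 CPM in control libraries. The groups overlapped in this sum. Within the list, the steroid enzyme gene Cyp11a1 had 0.0742, 0.07998 and 0.0786 CPM with CBLB502, against 15.1, 12.9 and 0.862 CPM in control. Every control kidney library held spermatid transcripts, control 1 and 3 held adipocyte transcripts above all CBLB502 libraries, and Cyp11a1 was high in control 1 and 2. Markers of fibroblasts and smooth muscle summed to 1221, 971 and 909 CPM in CBLB502 libraries, against 5035, 3014 and 3397 CPM in control libraries, and markers of hepatocytes to 781, 604 and 507 CPM in CBLB502 libraries, against 142, 134 and 220.3 CPM in control libraries. In bulk tissue, fewer cells of a type and less RNA per cell cannot be told apart.

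**Figure D2:**
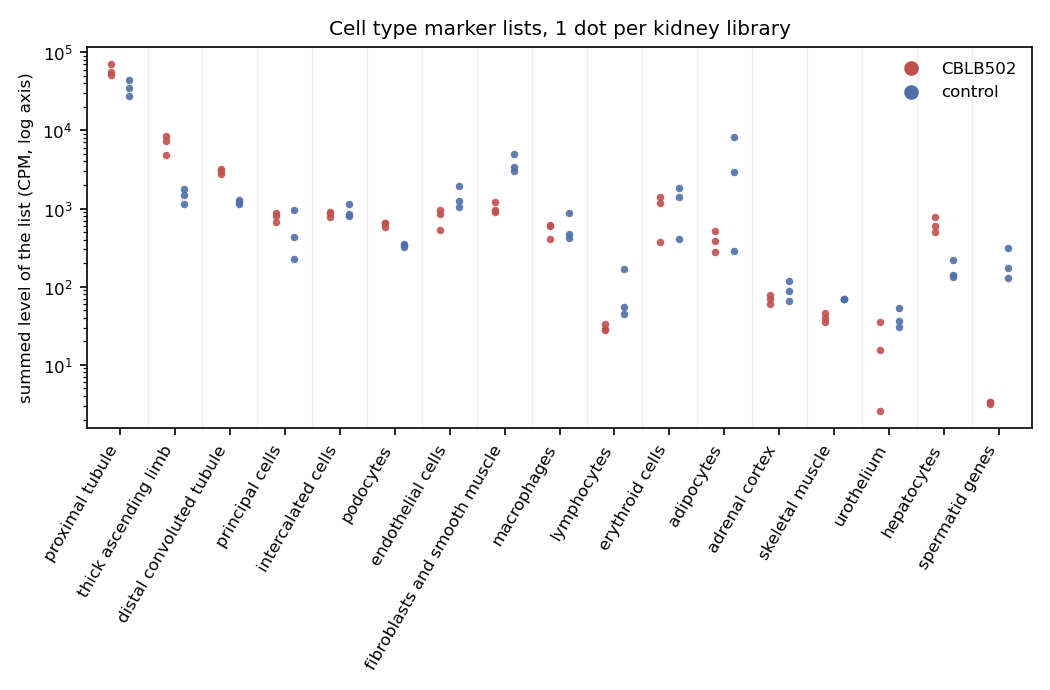
Summed level of each marker list in CPM (log axis), with 1 dot per CBLB502 library at the left and per control library at the right of each column. Proximal tubule, thick limb, distal convoluted tubule and podocyte lists were higher in all 3 CBLB502 libraries than in any control library, as was the hepatocyte list, and stromal and spermatid lists were among those lower.

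In total 4021 of 21222 tested genes were called at an adjusted p under 0.05 by the quasi-likelihood test of edgeR, adjusted by Benjamini and Hochberg (18.9%), 2434 of them higher in CBLB502 kidneys (11.5%) and 1587 lower (7.48%). An adjusted p below is from this test, and log2 changes in brackets are log2 fold changes of CBLB502 over control, ± SE. The median log2 fold change over all tested genes was 0.05. The share of calls that were higher was 60.5% here, 51.2% with median-of-ratios scaling and 44.4% with upper-quartile scaling, which moved the median to -0.05 and -0.12. CBLB502 and control libraries did not overlap for 45.5% of tested genes, 26.6% higher and 18.8% lower. For 652 of the genes called higher (26.8%) and 460 of those called lower (29.0%), the 3 CBLB502 libraries lay beyond all 9 other kidney libraries on the side of the call. Over all tested genes this held for 7.58% higher and 4.82% lower. These shares, and the 11.5% and 7.48% called, are the background for the counts of list members below. For 1699 of the higher calls (69.8%) and 1031 of the lower calls (65.0%), the 3 control libraries lay beyond all 9 treated libraries. The share over all tested genes was not counted for this measure, and the control libraries also differ from these 9 in kind of library. Without any 1 of the libraries the higher calls numbered 1382 to 1922 and the lower calls 768 to 1372, and of the 6 libraries only control 2 could be left out with both counts staying within 1.5 times. Genes with short transcripts tended to be lower: the median log2 fold change was -0.41 for genes with exon lengths up to 1747 bases and 0.26 for those from 5764 bases, the lowest and highest 25% by length.

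**Figure D3:**
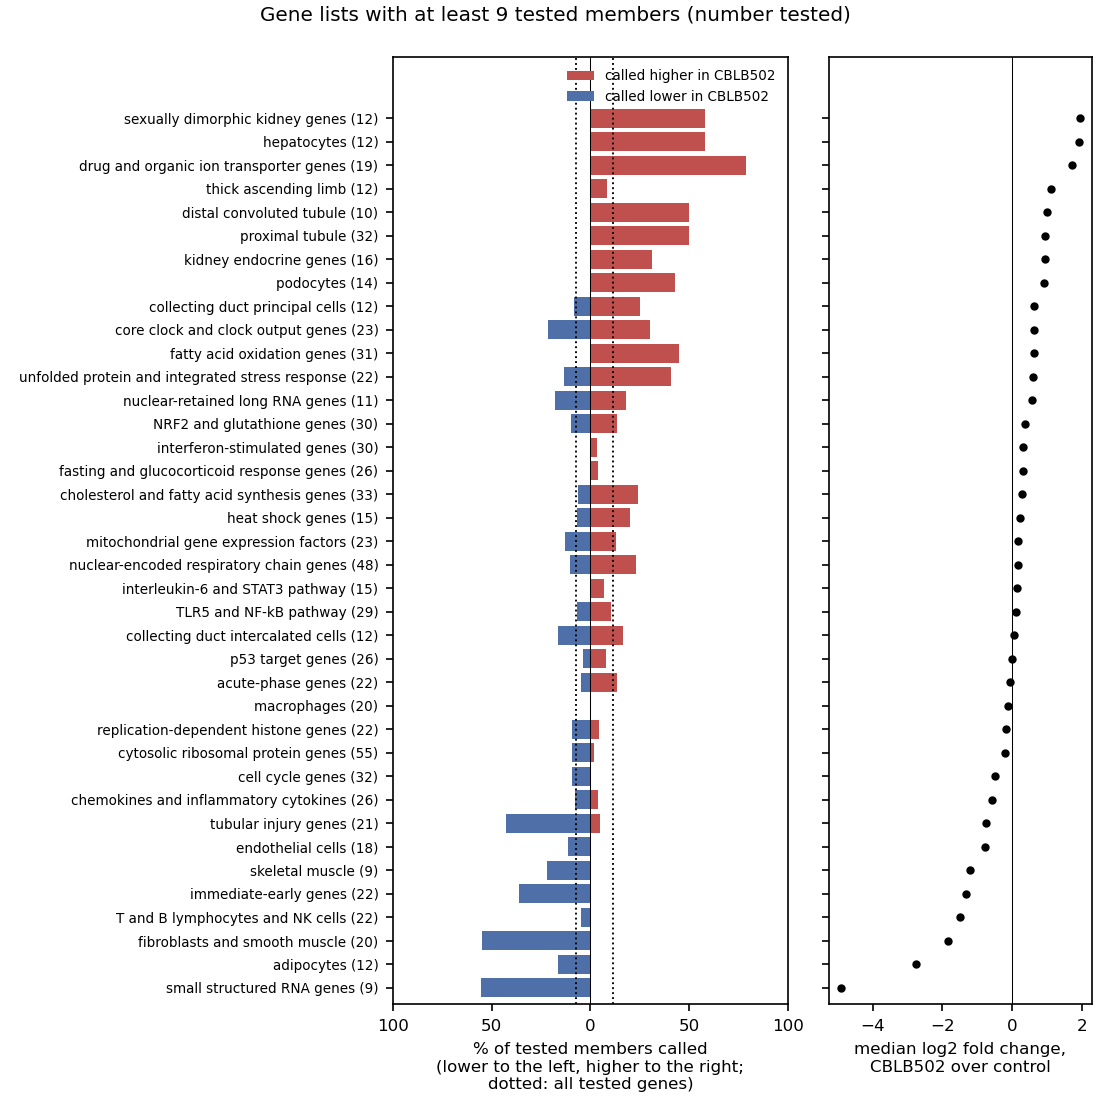
Left, percent of tested members of each gene list called higher (right of 0) or lower (left of 0) in CBLB502 over control, with dotted lines at the shares over all tested genes, 11.5% and 7.48%. Right, median log2 fold change of each list. Sexually dimorphic, hepatocyte, transporter and tubule lists lie at the top and stromal, adipocyte and small RNA lists at the bottom.

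Genes of the proximal tubule and of drug transport were higher in CBLB502 kidneys. Of 19 genes for transporters of drugs and organic ions 15 rose and none fell, with a median log2 fold change of 1.72, and 15 of 19 rose on counts thinned to the depth of the shallowest library. With an offset for gene length 13 rose, and without control 3 the count was 10. The urate exchanger gene Slc22a12 (ENSMUSG00000061742, chromosome 19, 6535845 to 6543032), which reclaims uric acid, had 1585, 1688 and 2053 CPM with CBLB502, against 365, 661 and 511 CPM in control. The groups did not overlap and the mean was 3.46-fold higher (log2 change 1.79 ± 0.38, adjusted p = 0.00737).

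Of the efflux pumps of the apical membrane, Abcc4, Abcg2 and Abcc2 rose, while Abcb1a and Slc47a1 were not called. Abcc4 (ENSMUSG00000032849, chromosome 14, 118482692 to 118706219), which exports cyclic nucleotides and organic anions, had 66.2, 53.9 and 38.8 CPM with CBLB502, against 14.04, 11.3 and 11.9 CPM in control (log2 change 2.10 ± 0.32, adjusted p = 0.00139). Abcg2 (ENSMUSG00000029802, chromosome 6, 58584523 to 58695676), which exports urate and many drugs, had 376, 403 and 489.5 CPM with CBLB502, against 154, 204 and 158 CPM in control (log2 change 1.30 ± 0.17, adjusted p = 0.000655). Both genes were higher in each CBLB502 library than in any of the other 9 kidney libraries. Abcc2, an anion pump of the same membrane, rose 3.29-fold (log2 change 1.72 ± 0.29, adjusted p = 0.00228). The copper importer gene Slc31a1, also known to carry platinum drugs into cells, rose 3.36-fold (log2 change 1.75 ± 0.26, adjusted p = 0.00102). The copper pump gene Atp7b had 4.38, 6.14 and 4.34 CPM with CBLB502, against 0, 0.532 and 0 CPM in control (adjusted p = 0.00859). Slc22a7, Slc22a18 and Slco1a6, carriers of organic anions or cations, rose 3.18-fold, 2.09-fold and 3.32-fold (adjusted p = 0.00497, 0.00179 and 0.000341). These 8 genes and Slc22a12 kept their call under every alternative, and the calls of Slco4c1, Slco1a1, Slc22a6, Slc22a19 and Atp7a ended under at least 1 of them. Not called were Slc22a2, the basolateral carrier of cisplatin, at 269 ± 29.1 CPM in CBLB502 kidneys and 143 ± 45.4 CPM in control kidneys (SD, n = 3 each; log2 change 0.91 ± 0.30, adjusted p = 0.0515), the anion exchanger gene Slc22a8 (log2 change -0.02 ± 0.58, adjusted p = 0.985), the extrusion carrier gene Slc47a1 (log2 change 0.28 ± 0.45, adjusted p = 0.713) and the drug pump gene Abcb1a (log2 change 0.90 ± 0.49, adjusted p = 0.23).

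**Figure D4:**
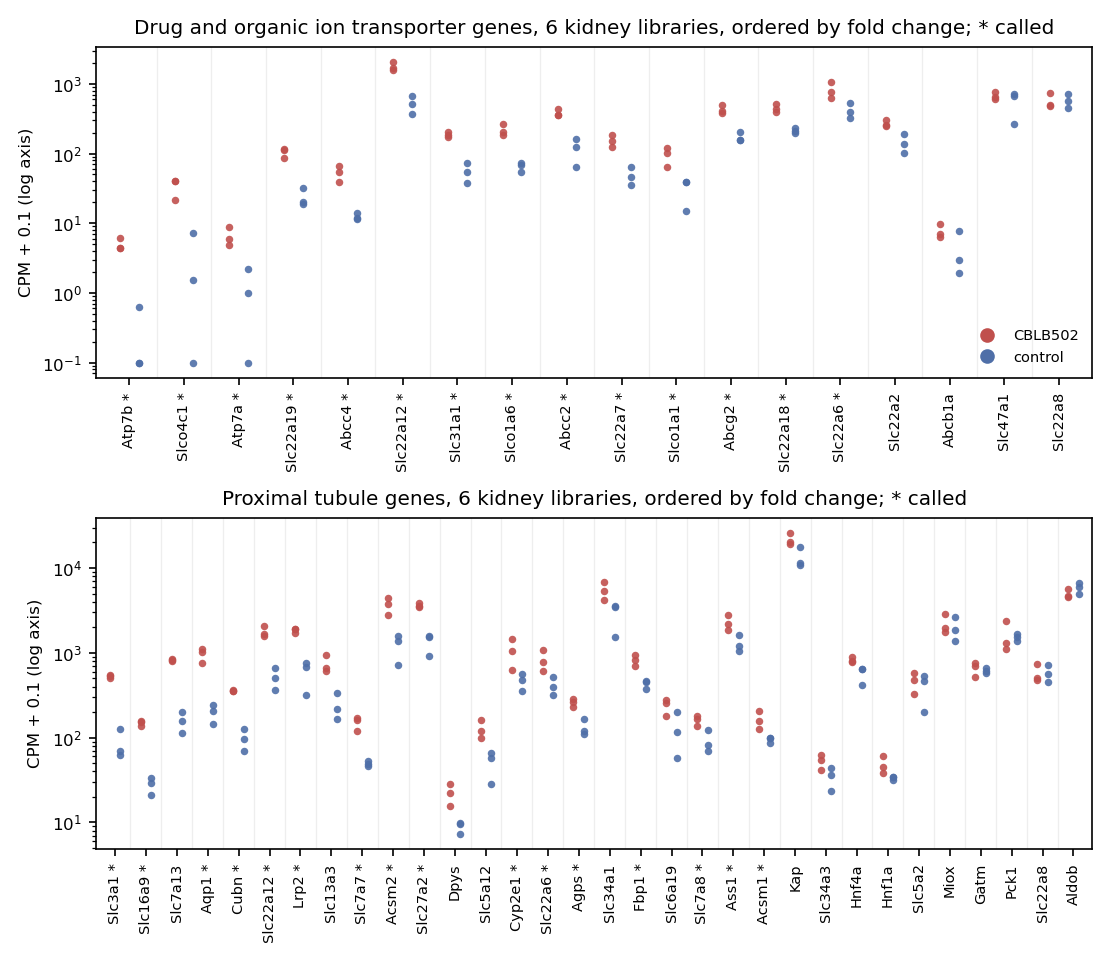
CPM + 0.1 (log axis) of genes of the transporter list (top) and the proximal tubule list (bottom) in CBLB502 libraries (left dots) and control libraries (right dots), ordered by fold change, with called genes starred. The starred genes have all 3 CBLB502 libraries above all 3 control libraries.

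Of 32 proximal tubule genes 16 rose and none fell (median log2 fold change 0.95). In 10 of the 32 the CBLB502 libraries were above all other 9 kidney libraries, as in 7.58% of all tested genes. The cystine and dibasic amino acid transporter subunit gene Slc3a1 (ENSMUSG00000024131, chromosome 17, 85028376 to 85064236) had 528, 509 and 540.1 CPM with CBLB502, against 62.3, 126 and 69.2 CPM in control (log2 change 2.61 ± 0.29, adjusted p = 0.000206). The water channel gene Aqp1 had 1110, 1036 and 766 CPM with CBLB502, against 144, 244 and 205 CPM in control (log2 change 2.29 ± 0.36, adjusted p = 0.00153). The groups did not overlap in either gene, and the receptor gene Cubn, which takes up filtered protein, was 3.702-fold higher, at 358, 362 and 355 CPM in CBLB502 libraries and 69.6, 125 and 96.03 CPM in control libraries (log2 change 1.89 ± 0.40, adjusted p = 0.00706). Its partner Lrp2 rose 3.15-fold (log2 change 1.65 ± 0.46, adjusted p = 0.0276), a call that held without control 2 and ended without any other of the 6 libraries, at adjusted p up to 0.109. The fatty acid activating enzyme gene Slc27a2 rose 2.71-fold (log2 change 1.44 ± 0.29, adjusted p = 0.0057) and the ether lipid enzyme gene Agps 1.94-fold (log2 change 0.96 ± 0.20, adjusted p = 0.00693). Not called were other defining genes of the segment: the androgen-regulated Kap, the most abundant of the list (21760 ± 3582 CPM in CBLB502 kidneys and 13300 ± 3810 CPM in control kidneys; SD, n = 3 each; log2 change 0.71 ± 0.35, adjusted p = 0.179), the phosphate carrier gene Slc34a1 (log2 change 0.94 ± 0.55, adjusted p = 0.262) and the glucose carrier gene Slc5a2 (log2 change 0.20 ± 0.31, adjusted p = 0.699). The count of 16 fell to 9, 8, 7 and 9 without CBLB502 5, CBLB502 6, control 1 or control 3, it was 10 with upper-quartile scaling, and 7 genes kept their call under every alternative.

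Later segments and the filter showed higher levels as well. In the distal convoluted tubule 5 of 10 genes rose and none fell (median 0.996), and for 8 of the 10 the CBLB502 libraries were above all other kidney libraries, where 7.58% of all genes did so. The thiazide-sensitive salt carrier gene Slc12a3 (ENSMUSG00000031766, chromosome 8, 94329201 to 94366214) had 1177, 1398 and 1494 CPM with CBLB502, against 424, 338 and 430.1 CPM in control (log2 change 1.77 ± 0.25, adjusted p = 0.000771). It was at 160.2, 174 and 268 CPM with cisplatin and 83.2, 141 and 116 CPM with the combination. The calcium buffer gene Calb1 rose 2.11-fold (log2 change 1.08 ± 0.20, adjusted p = 0.00332) and the sodium-calcium exchanger gene Slc8a1 5.602-fold (log2 change 2.49 ± 0.46, adjusted p = 0.00363). The list's count was 3 with the length offset and also without CBLB502 5, CBLB502 6 or control 2. Umod, the urinary protein of the thick limb, had 4078, 3432 and 2384 CPM with CBLB502, against 534, 607 and 362 CPM in control (log2 change 2.72 ± 0.41, adjusted p = 0.00114) and was the only 1 of that segment's 12 genes called (median 1.13). Slc12a1, its salt carrier, had 1795, 1571 and 579 CPM with CBLB502, against 193, 335 and 181 CPM in control, with a wide spread among CBLB502 libraries (log2 change 2.47 ± 1.10, adjusted p = 0.141). In a fit of the 6 libraries alone 8 of the 12 were called.

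Of 14 podocyte genes 6 rose and none fell (median 0.90). In 8 of the 14 the CBLB502 libraries lay above all other kidney libraries, as in 7.58% of all tested genes. Nphs1, which encodes nephrin of the slit diaphragm, had 33.1, 44.5 and 46.5 CPM with CBLB502, against 17.1, 13.98 and 15.99 CPM in control (ENSMUSG00000006649, chromosome 7, 30458315 to 30487223; log2 change 1.40 ± 0.20, adjusted p = 0.000986). The membrane protein gene Thsd7a rose 4.55-fold (log2 change 2.18 ± 0.42, adjusted p = 0.00456). The count was 3 without control 2 or control 3. Of 16 tested hormone and mineral genes of the kidney 5 rose and none fell (median 0.93). The angiotensin-converting enzyme gene Ace had 179, 196 and 179.9 CPM with CBLB502, against 29.00, 34.7 and 32.1 CPM in control (log2 change 2.53 ± 0.32, adjusted p = 0.000454). Umod, the anti-ageing co-receptor gene Kl and the vitamin D receptor gene Vdr were also called. The renin gene Ren1 was not called (log2 change 1.11 ± 0.46, adjusted p = 0.114). Collecting duct genes moved less uniformly. Of 12 principal cell genes 3 rose, subunits of the epithelial sodium channel (Scnn1a, Scnn1g and Scnn1b, by 1.89-fold, 2.57-fold and 1.92-fold). The transcription factor gene Gata3 fell 2.38-fold (adjusted p = 0.00857). Of 12 intercalated cell genes 2 rose, Rhbg and Slc26a4, and 2 fell, Slc4a9 and Atp6v1g3.

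Fatty acid oxidation genes rose in 14 of 31 cases and none fell (median log2 fold change 0.61). Cyp4a14 (ENSMUSG00000028715, chromosome 4, 115486200 to 115496142), a fatty acid hydroxylase switched on by the receptor PPAR alpha, was 17.99-fold higher, at 162, 104 and 263 CPM with CBLB502, against 5.19, 16.9 and 7.28 CPM in control (log2 change 4.14 ± 0.48, adjusted p = 0.000285). Its CBLB502 level was still under that of the other treated groups, at 1311, 1896 and 1044 CPM with cisplatin and 2186, 2302 and 3045 CPM with the combination. Cyp4a10, its close relative, rose 4.28-fold (log2 change 2.10 ± 0.32, adjusted p = 0.00132). Cpt1a, which carries fatty acids into mitochondria, had 432, 472 and 462 CPM with CBLB502, against 86.1, 134 and 111 CPM in control (ENSMUSG00000024900, chromosome 19, 3322334 to 3385733; log2 change 2.04 ± 0.20, adjusted p = 0.000108), and the peroxisomal enzyme gene Ehhadh rose 2.88-fold (log2 change 1.52 ± 0.24, adjusted p = 0.00153). These 4 genes and Acot1 kept their call under every alternative. The count of 14 was 8 with the length offset, 7 with upper-quartile scaling and between 6 and 9 without CBLB502 5 or 6 or any 1 control library. Cpt1a was also the only 1 called of 26 genes of fasting and glucocorticoid response (median 0.30).

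Of 33 genes of cholesterol and fatty acid synthesis 8 rose and 2 fell (median 0.27). Hsd17b7 (ENSMUSG00000026675, chromosome 1, 169949535 to 169969241), an enzyme late in cholesterol synthesis, had 26.9, 28.2 and 24.4 CPM with CBLB502, against 4.88, 10.2 and 4.02 CPM in control (log2 change 2.04 ± 0.33, adjusted p = 0.00158). Sqle (ENSMUSG00000022351, chromosome 15, 59315077 to 59331192), which oxidises squalene, had 68.1, 74.9 and 60.1 CPM with CBLB502, against 23.5, 34.8 and 23.2 CPM in control (log2 change 1.31 ± 0.22, adjusted p = 0.00217). Acaca, the first enzyme of fatty acid synthesis, had 27.2, 36.1 and 31.8 CPM with CBLB502, against 296, 18.2 and 98.6 CPM in control (log2 change -2.11 ± 0.66, adjusted p = 0.0436). Its control libraries follow the order of the adipocyte sums, as do those of the synthase gene Fasn at 1901, 59.6 and 481 CPM, and the part of adipocyte transcripts in the Acaca call was not tested.

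The circadian clock list moved both ways. In the clock, the activators CLOCK and ARNTL (or NPAS2) drive genes through E-boxes, PER and CRY proteins and CIART inhibit them, NR1D1 and NR1D2 repress Arntl and Npas2 through sites that the ROR receptors activate, and DBP, TEF and their rival NFIL3 act on D-boxes. Of 23 clock and output genes 7 rose (Nr1d2, Dbp, Per3, Nr1d1, Cry2, Tef and Ciart) and 5 fell (among them Arntl, Npas2, Cry1 and Nfil3), against shares of 11.5% and 7.48% over all genes (median 0.63). The repressor gene Nr1d2 (ENSMUSG00000021775, chromosome 14, 18204054 to 18239127) had 117, 131 and 106 CPM with CBLB502, against 22.6, 22.3 and 26.4 CPM in control (log2 change 2.31 ± 0.15, adjusted p = 1.06e-05), which gave it one of the smallest p-values of all genes. The output factor gene Dbp (ENSMUSG00000059824, chromosome 7, 45705088 to 45710203) had 58.7, 78.04 and 69.2 CPM with CBLB502, against 12.98, 6.61 and 5.46 CPM in control (log2 change 3.06 ± 0.28, adjusted p = 8.89e-05). All CBLB502 libraries were above all control libraries in both genes. Per3 had 40.3, 37.9 and 34.6 CPM with CBLB502, against 5.65, 4.79 and 3.73 CPM in control (log2 change 3.001 ± 0.43, adjusted p = 0.000969). Nr1d1 had 70.1, 84.1 and 78.1 CPM with CBLB502, against 23.1, 15.3 and 30.9 CPM in control (log2 change 1.75 ± 0.26, adjusted p = 0.00112).

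Genes of the activator arm fell. Arntl (ENSMUSG00000055116, chromosome 7, 113207465 to 113314126) had 8.09, 5.98 and 4.88 CPM with CBLB502, against 29.3, 34.04 and 32.8 CPM in control (log2 change -2.34 ± 0.26, adjusted p = 0.000228). Npas2 had 3.04, 2.66 and 2.399 CPM with CBLB502, against 10.99, 28.9 and 22.8 CPM in control (log2 change -2.96 ± 0.42, adjusted p = 0.000843). The groups were apart in each gene, but the cisplatin and combination libraries also lay below every control library, with Arntl at 9.04, 8.33 and 9.698 CPM with cisplatin and 3.88, 6.84 and 5.505 CPM with the combination. Cry1, in contrast, was lower in CBLB502 than in every other kidney library, at 4.03, 4.98 and 2.32 CPM, against 17.7, 15.9 and 9.096 CPM in control libraries (log2 change -1.91 ± 0.35, adjusted p = 0.00362), and so was the D-box repressor gene Nfil3 at 5.86, 9.62 and 3.99 CPM, against 27.8, 32.2 and 26.2 CPM in control libraries (log2 change -2.15 ± 0.46, adjusted p = 0.00824; its call ended with limma-voom). Nr1d2, Dbp, Per3 and Nr1d1 were higher in CBLB502 than in all 9 other libraries. Not called were Clock, Per1 and Per2 (adjusted p = 0.426, 0.421 and 0.0549). The 7 higher calls were 4 without CBLB502 5. The labels give no clock time of collection for any group, so time of day and treatment cannot be told apart.

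The promoters of these genes, taken from RefSeq (mouse build GRCm38.p6, 250 bases before to 50 after the start), are shown for 3 of the genes that rose because they carry the letters of the clock's sites, which stand in capitals: the E-box CACGTG in Ciart, the D-box TTATGTAA in Per3 and the core AGGTCA of the ROR site in Nr1d2. Both strands were searched, and no motif overlaps another in these windows. Of all 27025 genes with a RefSeq promoter, 8.09% held the E-box in at least 1 promoter and 1.11% held TTATGTAA. The other D-box spelling TTACGTAA was in 0.126% and AGGTCA in 18.1%. The A or T rich bases that precede the core in a full ROR site were not part of the search.
Ciart promoter (chr3:95882179-95882478, minus strand): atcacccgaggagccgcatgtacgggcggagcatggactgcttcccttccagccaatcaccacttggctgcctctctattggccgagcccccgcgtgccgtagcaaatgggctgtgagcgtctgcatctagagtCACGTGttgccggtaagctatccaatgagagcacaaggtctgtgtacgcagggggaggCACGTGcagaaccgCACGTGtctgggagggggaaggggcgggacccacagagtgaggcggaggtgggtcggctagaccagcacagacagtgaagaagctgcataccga
Per3 promoter (chr4:151044616-151044915, minus strand): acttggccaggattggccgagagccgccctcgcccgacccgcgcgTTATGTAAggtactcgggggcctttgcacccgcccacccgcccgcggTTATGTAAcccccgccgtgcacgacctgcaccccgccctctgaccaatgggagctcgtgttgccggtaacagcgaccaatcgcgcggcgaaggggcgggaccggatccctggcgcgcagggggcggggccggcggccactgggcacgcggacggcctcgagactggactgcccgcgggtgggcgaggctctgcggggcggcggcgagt
Nr1d2 promoter (chr14:18239057-18239356, minus strand): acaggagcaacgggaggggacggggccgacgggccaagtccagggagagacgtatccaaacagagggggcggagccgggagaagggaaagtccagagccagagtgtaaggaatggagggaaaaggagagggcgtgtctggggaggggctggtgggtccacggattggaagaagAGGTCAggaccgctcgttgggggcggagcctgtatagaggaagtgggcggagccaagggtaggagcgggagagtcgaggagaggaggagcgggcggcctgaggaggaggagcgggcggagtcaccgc
The 3 E-boxes of Ciart begin 116, 58 and 44 bases before the start, and the pair of D-boxes of Per3 begin 205 and 158 bases before it. Of the 7 genes that rose, 2 held an E-box (Ciart and Tef), 1 TTATGTAA and 1 AGGTCA. Of the 4 genes that fell and have a promoter in the table, 1 held an E-box (Cry1) and 2 held AGGTCA (Arntl and Nfil3), and of 8 such genes not called 2 held an E-box and 2 AGGTCA.

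Immediate-early genes, which cells switch on within minutes of a stimulus, were lower in CBLB502 kidneys. None of 22 rose and 8 fell (median log2 fold change -1.31), and for 13 of the 22 the CBLB502 libraries lay below all 9 other kidney libraries, as did 4.82% of all genes. Fos (ENSMUSG00000021250, chromosome 12, 85473890 to 85477273), a subunit of the transcription factor AP-1, had 0.816, 0.8798 and 0.5505 CPM with CBLB502, against 66.7, 82.5 and 55.7 CPM in control. It was at 49.1, 27.6 and 7.502 CPM with cisplatin and 12.5, 12.6 and 6.83 CPM with the combination. Its CBLB502 libraries were all under 1 CPM, and it was 91.2-fold lower than in control (log2 change -6.51 ± 0.64, adjusted p = 0.000125). Its relative Fosb had 0.352, 0.2999 and 0 CPM with CBLB502, against 21.7, 24.7 and 20.01 CPM in control (log2 change -6.65 ± 1.11, adjusted p = 0.00207). Its partner Jun had 30.7, 31.6 and 23.1 CPM with CBLB502, against 180.0, 153 and 157 CPM in control (log2 change -2.52 ± 0.49, adjusted p = 0.00455). The nuclear receptor gene Nr4a1 fell 7.14-fold (log2 change -2.84 ± 0.48, adjusted p = 0.00236). The phosphatase gene Dusp1, which switches off MAP kinases, fell 2.44-fold (log2 change -1.29 ± 0.27, adjusted p = 0.0064). These 5 genes kept their call under every alternative. The zinc finger gene Egr1 had 4.64, 3.28 and 2.83 CPM with CBLB502, against 54.8, 61.4 and 49.98 CPM in control (log2 change -3.95 ± 0.68, adjusted p = 0.0026), a call that ended with limma-voom at adjusted p = 0.0547. Junb and Klf4 fell 3.24-fold and 2.53-fold (adjusted p = 0.0471 and 0.0496), and both calls ended without any 1 of the 6 libraries, at adjusted p from 0.0725 to 0.139.

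**Figure D5:**
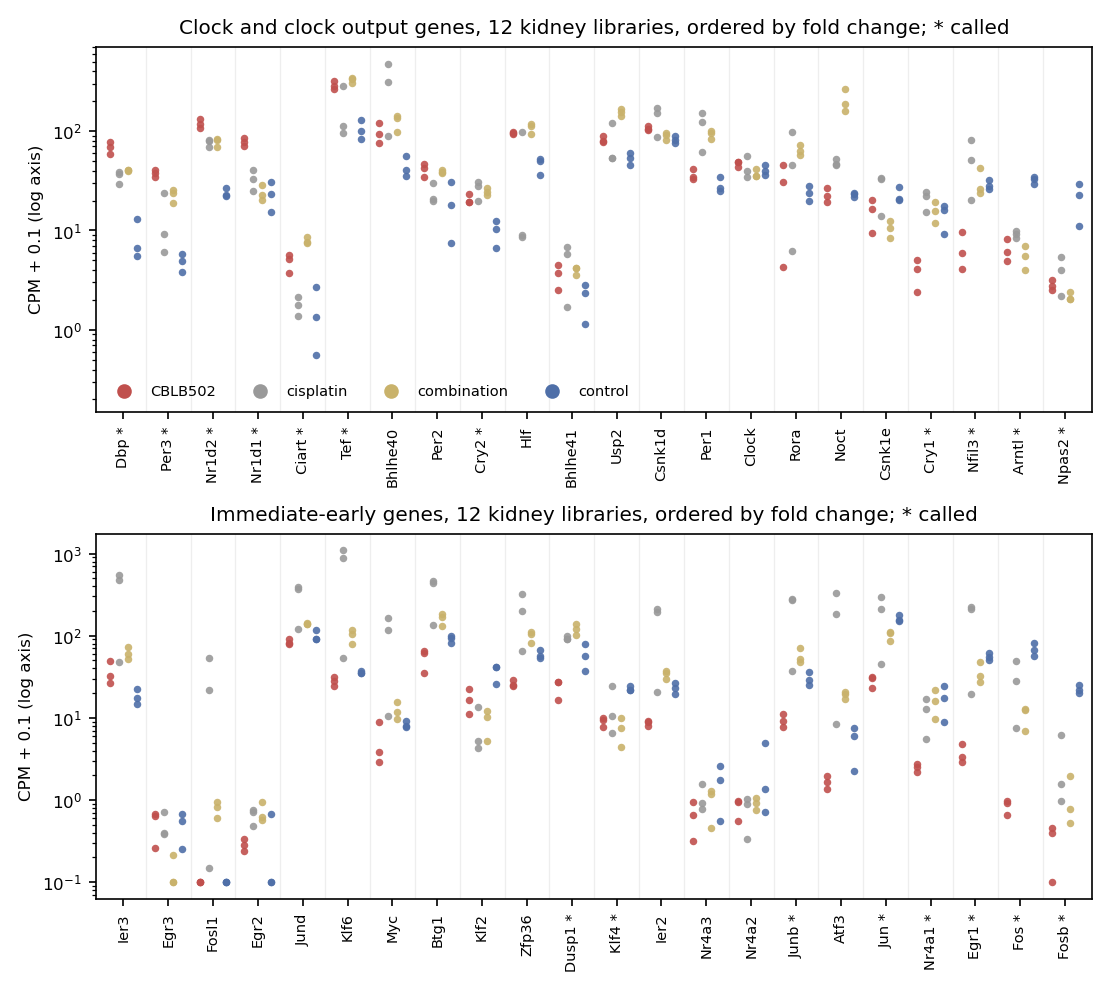
CPM + 0.1 (log axis) of clock genes (top) and immediate-early genes (bottom) in 12 kidney libraries, ordered by the fold change of CBLB502 over control, with called genes starred. Each column shows CBLB502, cisplatin, combination and control from left to right. Fos, Fosb, Egr1, Jun, Cry1 and Nfil3 are lower in CBLB502 than in the other 3 groups, while Arntl and Npas2 are low in all treated groups.

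Genes that answer to unfolded protein in the endoplasmic reticulum rose more often than they fell, 9 of 22 higher and 3 lower (median 0.61). The chaperone gene Hspa5 (ENSMUSG00000026864, chromosome 2, 34771970 to 34777547) had 638, 423 and 659 CPM with CBLB502, against 266, 317 and 174 CPM in control (log2 change 1.19 ± 0.26, adjusted p = 0.00822). Canx (ENSMUSG00000020368, chromosome 11, 50293961 to 50325673), a chaperone of glycoproteins, had 392, 349.7 and 391 CPM with CBLB502, against 139, 143 and 114 CPM in control (log2 change 1.52 ± 0.15, adjusted p = 0.000125). The groups did not overlap in either gene. Herpud1, part of the machinery that clears misfolded protein, rose 3.696-fold (log2 change 1.88 ± 0.26, adjusted p = 0.000736). The co-chaperone gene Dnajc3 rose 2.77-fold (log2 change 1.47 ± 0.16, adjusted p = 0.000181) and the chaperone gene Hyou1 2.52-fold (log2 change 1.33 ± 0.23, adjusted p = 0.00271). The sensor gene Atf6 rose 2.56-fold (log2 change 1.36 ± 0.24, adjusted p = 0.00318). These 6 kept their call under every alternative, while those of Dnajb9, Manf and Pdia6 ended under at least 1. The 3 that fell are known targets of ATF4, the factor of the integrated stress response: Ppp1r15a, 2.88-fold lower (log2 change -1.53 ± 0.41, adjusted p = 0.0234), Asns, 4.43-fold (log2 change -2.13 ± 0.52, adjusted p = 0.0147), and Ddit3, 1.83-fold (log2 change -0.87 ± 0.27, adjusted p = 0.0397). Their calls ended under at least 1 alternative. In all 3 the CBLB502 libraries were below the other 9, as in 4.82% of all tested genes. For the 9 that rose this held for none on the high side, and Canx was at 421, 434 and 390.4 CPM with cisplatin and 487, 394 and 439 CPM with the combination.

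Promoters of this list were searched for the ER stress element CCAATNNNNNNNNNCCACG, the site of ATF6 and XBP1, after the values had been seen. It was in 4 of the 6 genes that rose and have a RefSeq promoter (Canx, Dnajc3, Hspa5 and Pdia6). It was in 0 of the 3 that fell and in 3 of 10 not called (Calr, Creld2 and Hsp90b1). Of all genes with a RefSeq promoter 0.137% held it (both strands, GRCm38.p6). The element is in capitals in 3 of them, shown because these genes had the calls that held.
Hspa5 promoter (chr2:34771840-34772139, plus strand): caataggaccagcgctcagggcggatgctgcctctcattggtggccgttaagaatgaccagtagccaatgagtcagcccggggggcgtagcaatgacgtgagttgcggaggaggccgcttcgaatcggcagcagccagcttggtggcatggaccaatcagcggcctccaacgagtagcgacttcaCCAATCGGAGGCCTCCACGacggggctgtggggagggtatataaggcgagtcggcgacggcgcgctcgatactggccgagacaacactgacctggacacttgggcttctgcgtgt
Canx promoter (chr11:50325624-50325923, minus strand): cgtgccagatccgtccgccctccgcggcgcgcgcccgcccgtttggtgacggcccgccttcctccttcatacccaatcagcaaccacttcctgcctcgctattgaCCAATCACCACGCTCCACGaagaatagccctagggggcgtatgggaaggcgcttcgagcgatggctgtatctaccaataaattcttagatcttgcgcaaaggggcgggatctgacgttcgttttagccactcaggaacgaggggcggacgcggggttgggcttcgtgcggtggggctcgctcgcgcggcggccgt
Dnajc3 promoter (chr14:118937682-118937981, plus strand): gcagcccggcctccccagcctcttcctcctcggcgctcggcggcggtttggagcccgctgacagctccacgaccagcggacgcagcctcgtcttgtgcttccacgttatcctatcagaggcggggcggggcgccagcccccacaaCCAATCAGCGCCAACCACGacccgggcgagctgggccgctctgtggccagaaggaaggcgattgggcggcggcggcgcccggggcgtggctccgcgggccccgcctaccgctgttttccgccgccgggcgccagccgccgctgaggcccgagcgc
It begins 65, 145 and 105 bases before the start in Hspa5, Canx and Dnajc3. Of 15 heat shock genes 3 rose (Hsph1, Dnaja1 and Hspd1) and 1 fell (median 0.23). Hsph1 was at 226 ± 31.3 CPM in CBLB502 kidneys and 91.1 ± 30.7 CPM in control kidneys (SD, n = 3 each, log2 change 1.31 ± 0.25, adjusted p = 0.00395). Dnaja1 was 2.03-fold higher (log2 change 1.02 ± 0.21, adjusted p = 0.00723).

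Markers of fibroblasts and smooth muscle fell in 11 of 20 cases and none rose (median log2 fold change -1.83), and 9 of the 11 kept their call under every alternative. The smooth muscle actin gene Acta2 (ENSMUSG00000035783, chromosome 19, 34241090 to 34255590) had 45.6, 35.3 and 40.05 CPM with CBLB502, against 174, 282 and 344 CPM in control (log2 change -2.73 ± 0.29, adjusted p = 0.000178). The smooth muscle myosin gene Myh11 had 24.97, 27.7 and 23.5 CPM with CBLB502, against 163, 212 and 314 CPM in control (log2 change -3.17 ± 0.50, adjusted p = 0.00155). Cnn1, another contractile gene, fell 18.02-fold (log2 change -4.17 ± 0.59, adjusted p = 0.000836). The groups did not overlap in these genes, but for none of the 20 did the CBLB502 libraries lie below the cisplatin and combination libraries. Among matrix genes Col4a1, of basement membrane, fell 3.74-fold (log2 change -1.90 ± 0.30, adjusted p = 0.00144). The fibronectin gene Fn1 fell 5.96-fold (log2 change -2.57 ± 0.49, adjusted p = 0.00435). Of 12 adipocyte genes 2 fell, led by Fabp4 at 91.9, 113 and 114 CPM with CBLB502, against 3263, 172 and 1556 CPM in control (log2 change -3.97 ± 0.77, adjusted p = 0.00458). Of 7 tested adrenal genes 3 fell (Cyp11a1, Hsd3b1 and Nr5a1), of 9 skeletal muscle genes 2 fell (Myh2 and Mylpf), and of 18 endothelial genes 2 fell, Nos3 and Cldn5 (adjusted p = 0.0151 and 0.0178). The levels of spermatid, adipocyte and adrenal transcripts in the control libraries are given above, and their part in these falls was not tested. Of 12 hepatocyte genes 7 rose, led by the lipoprotein gene Apob at 204, 180.1 and 120.4 CPM with CBLB502, against 27.8, 35.8 and 27.3 CPM in control (log2 change 2.47 ± 0.23, adjusted p = 0.000101). The protease inhibitor gene Serpina1b had 51.3, 44.2 and 27.4 CPM with CBLB502, against 6.41, 8.05 and 12.2 CPM in control (log2 change 2.20 ± 0.31, adjusted p = 0.00081).

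Immune cell markers were called in few cases. In the fit of 12 libraries none of 20 macrophage, 7 tested neutrophil, 6 tested erythroid or 8 urothelial genes was called by edgeR or by DESeq2, and 0, 0, 0 and 1 of them had an unadjusted p under 0.05 by edgeR. In the fit of the 6 libraries alone 1 macrophage gene was called lower, and on thinned counts 2 urothelial genes were. By edgeR on 12 libraries, only Lck of 22 tested lymphocyte genes was called, at 2.04, 1.48 and 0.924 CPM with CBLB502, against 21.4, 2.89 and 1.92 CPM in control (log2 change -2.54 ± 0.80, adjusted p = 0.0461). Lck overlapped between the groups, was high in control 1 alone, and lymphocyte markers as a whole summed to 33.5, 28.5 and 28.3 CPM in CBLB502 libraries, against 167, 45.2 and 55.2 CPM in control libraries.

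More genes of tubular injury fell than rose, 9 of 21 lower and 1 higher (median -0.75). In 7 the CBLB502 libraries lay below all 9 other kidney libraries, as did 4.82% of all tested genes. The calcium-binding protein gene S100a6 (ENSMUSG00000001025, chromosome 3, 90612882 to 90624181) had 15.5, 22.7 and 10.01 CPM with CBLB502, against 80.1, 44.5 and 70.2 CPM in control (log2 change -2.01 ± 0.34, adjusted p = 0.0025). Anxa2, a membrane-binding protein, had 64.2, 54.8 and 35.3 CPM with CBLB502, against 189, 108 and 113 CPM in control (log2 change -1.41 ± 0.26, adjusted p = 0.00376). The filament gene Vim, which fibroblasts also express, fell 3.96-fold (log2 change -1.98 ± 0.41, adjusted p = 0.00652). Clu, the secreted chaperone clusterin, rose to 234, 241 and 312 CPM in CBLB502 libraries, against 96.6, 64.3 and 56.4 CPM in control libraries (log2 change 1.86 ± 0.39, adjusted p = 0.00668). The best known markers were low in both groups: Havcr1 had 1.73, 1.54 and 1.12 CPM with CBLB502, against 2.75, 1.52 and 2.68 CPM in control (log2 change -0.63 ± 0.93, adjusted p = 0.695). Lcn2 had 4.97, 5.08 and 1.48 CPM with CBLB502, against 2.44, 7.98 and 6.22 CPM in control (log2 change -0.57 ± 0.90, adjusted p = 0.715). For scale, cisplatin kidney libraries 4, 5 and 6 held 538.4, 338.3 and 14.96 CPM of Havcr1. The count of 9 was 4, 5 and 4 without CBLB502 4, CBLB502 6 or control 1. The summed level of the list was nonetheless higher with CBLB502, at 1354, 1430 and 1419 CPM in CBLB502 libraries, against 1265, 1321 and 1088 CPM in control libraries. Its most abundant member Spp1, which encodes osteopontin, was not called, at 692, 749 and 725 CPM with CBLB502, against 299, 521 and 276 CPM in control (log2 change 0.98 ± 0.60, adjusted p = 0.289). Stromal marker sums, given above, were lower with CBLB502, and their part in the 9 falls was not tested.

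Genes of the pathway that CBLB502 addresses were called about as often as all genes at 72 h. The receptor gene Tlr5 (ENSMUSG00000079164, chromosome 1, 182954788 to 182976044) had 0.612, 0.07998 and 0.0983 CPM with CBLB502, against 1.22, 0.532 and 0.383 CPM in control (log2 change -1.40 ± 1.37, adjusted p = 0.53), with overlapping groups at levels of a few counts in control libraries. Of 29 genes of TLR5 and NF-kB signalling 3 rose and 2 fell, close to the shares over all genes (median 0.12), and none kept its call under every alternative. Those that rose were the adaptor gene Traf6 (1.57-fold, adjusted p = 0.0299), the double-stranded RNA receptor gene Tlr3 (1.78-fold, 0.034) and the inhibitor gene Tollip (1.41-fold, 0.042), and those that fell were the inhibitors Irak3 (2.61-fold, 0.0441) and Nfkbie (2.29-fold, 0.0453). The NF-kB inhibitor gene Nfkbia, an early target, had 20.8, 17.8 and 15.9 CPM with CBLB502, against 34.8, 19.8 and 38.9 CPM in control (log2 change -0.77 ± 0.41, adjusted p = 0.211). Tnfaip3 was not called either (log2 change 0.35 ± 0.47, adjusted p = 0.663).

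Of 26 tested chemokine and cytokine genes 1 rose and 2 fell (median -0.57, or -0.67 once genes without counts in 1 group are set to their bound). Over all tested genes 11.5% rose and 7.48% fell, and the counts of every list in this paragraph are near or under those shares. Ccl5 had 2.04, 2.48 and 2.52 CPM with CBLB502, against 24.7, 4.79 and 6.42 CPM in control (log2 change -2.34 ± 0.58, adjusted p = 0.0163). The adhesion molecule gene Vcam1 fell 2.46-fold (log2 change -1.29 ± 0.38, adjusted p = 0.0345). Il1rn had under 0.3 CPM in every CBLB502 library and no count in control, at least 1.98-fold higher (floor of 3 counts over the control group; adjusted p = 0.0471). Calls of all 3 ended under at least 1 alternative. Of 22 acute-phase genes 3 rose and 1 fell (median -0.075): complement factor B, Cfb, had 344, 369.5 and 448 CPM with CBLB502, against 191, 208 and 154 CPM in control (log2 change 1.07 ± 0.17, adjusted p = 0.00145). Crp reached 0.501, 0.5599 and 0.491 CPM with CBLB502 and had no count in control, at least 5.201-fold higher (floor of 3 counts over the control group; adjusted p = 0.00515). Saa3 rose (log2 change 4.17 ± 1.33, adjusted p = 0.0471) and Saa2 fell (log2 change -4.46 ± 1.25, adjusted p = 0.0281). Saa1, among the most induced genes of the acute phase, had 0.223, 0.07998 and 0.374 CPM with CBLB502, against 0, 0 and 1.25 CPM in control (log2 change -0.93 ± 1.67, adjusted p = 0.75). Interferon-stimulated genes had 1 of 30 higher, Irgm1 (1.61-fold, adjusted p = 0.0228), and interleukin-6 and STAT3 genes 1 of 15, Socs1, at 1.67, 1.34 and 0.5899 CPM with CBLB502, against 0, 0.304 and 0 CPM in control (adjusted p = 0.0298). Medians of these lists were 0.32 and 0.14.

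Genes of stress and growth programmes were called at rates near or under the shares over all genes, 11.5% higher and 7.48% lower. Of 26 p53 target genes 2 rose, Perp and Rrm2b, and 1 fell, Fas (median -0.003). Cdkn1a, which p53 induces to stop cell division, had 8.77, 6.16 and 6.901 CPM with CBLB502, against 29.2, 17.1 and 25.5 CPM in control, below all other kidney libraries but not past the threshold (log2 change -1.71 ± 0.57, adjusted p = 0.0563; adjusted p from 0.00248 to 0.0478 under 5 alternatives). Mdm2 was at 51.8 ± 8.38 CPM in CBLB502 kidneys and 47.5 ± 6.25 CPM in control kidneys (SD, n = 3 each; log2 change 0.12 ± 0.33, adjusted p = 0.834). Of 30 genes of the NRF2 and glutathione system 4 rose and 3 fell (median 0.365), and with upper-quartile scaling 0 rose and 3 fell. The quinone reductase gene Nqo1 was 2.15-fold higher (log2 change 1.10 ± 0.32, adjusted p = 0.0326) and the glutathione transferase gene Gsta4 1.95-fold lower (log2 change -0.96 ± 0.22, adjusted p = 0.01). The metallothionein genes Mt1 and Mt2 were not called (adjusted p = 0.793 and 0.804). Of 32 cell cycle genes none rose and 3 fell, the mitotic genes Plk1, Kif20a and Tpx2 (adjusted p = 0.0145, 0.0212 and 0.0408, median of the list -0.50). Of 22 tested histone genes 1 rose and 2 fell (median -0.16).

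Nuclear genes for mitochondrial proteins moved both ways. Of 48 nuclear genes of the respiratory chain 11 rose and 5 fell (median 0.16), and with upper-quartile scaling 6 rose and 10 fell. Sdha of complex II had 743, 753 and 815 CPM with CBLB502, against 393, 451 and 407 CPM in control (log2 change 0.89 ± 0.17, adjusted p = 0.00518). Cox5a of complex IV had 244, 234 and 263 CPM with CBLB502, against 118, 118 and 123 CPM in control (log2 change 1.05 ± 0.12, adjusted p = 0.00033). The ATP synthase gene Atp5g3 and the complex IV gene Cox8a rose 2.27-fold and 1.79-fold, while Ndufa5 and Ndufs8 of complex I fell 2.25-fold and 1.703-fold (adjusted p = 0.00477 and 0.00941). Of 23 factors of mitochondrial gene expression 3 rose, Tfam, Gabpa and Fastkd2, and 3 fell, Ssbp1, Slirp and Mterf1a (median 0.17). Tfam, which packages and transcribes mitochondrial DNA, had 50.3, 56.95 and 51.7 CPM with CBLB502, against 29.2, 43.6 and 38.5 CPM in control (log2 change 0.51 ± 0.16, adjusted p = 0.0432), a call that ended under most alternatives, at adjusted p up to 0.275. Of 55 cytosolic ribosomal protein genes 1 rose, Rpl7a, and 5 fell, with Rpl28 at 292, 266 and 364 CPM with CBLB502, against 814, 638 and 639 CPM in control (log2 change -1.18 ± 0.21, adjusted p = 0.00305; median of the list -0.22). In 21 of the 55 the CBLB502 libraries lay below all 9 other kidney libraries, as did 4.82% of all tested genes. The list's median exon length was 1840 bases. Over all tested genes the median log2 fold change was -0.41 up to 1747 bases and 0.0 from 1748 to 3383 bases. The list's median length lies close to the border of these 2 classes. With the length offset the list's median was -0.28, against -0.11 over all tested genes.

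Some short structured RNAs were lower. Of 21 such genes in the data only 9 were tested. Of these 5 fell, Rn7s1, Rn7s2, Rn7s6, Rn7sk and Scarna2, and none rose (median -4.905, or -3.71 with bounds). The Rn7s genes are related copies, so their calls are not separate results. The 55 tested genes annotated as snoRNA had a median of -0.113, with 9.09% lower and 1.82% higher. The 15 annotated as misc_RNA had a median of -0.296, with 46.7% lower. The signal recognition particle RNA gene Rn7s2 had 0.352, 0.8198 and 4.74 CPM with CBLB502, against 204, 68.6 and 89.04 CPM in control (log2 change -5.93 ± 0.92, adjusted p = 0.00144). Rn7sk, which holds the elongation factor P-TEFb inactive, had 0.482, 0.5599 and 0.904 CPM with CBLB502, against 32.7, 11.7 and 14.5 CPM in control (log2 change -4.91 ± 0.75, adjusted p = 0.00128). The part of library kind in these falls cannot be told apart from that of treatment. Of 11 long RNAs kept in the nucleus 2 rose and 2 fell (median 0.57), among them Malat1 at 430.1, 417 and 547 CPM with CBLB502, against 1381, 1033 and 754 CPM in control (log2 change -1.18 ± 0.30, adjusted p = 0.0176). Processed pseudogenes as a class had a median of -1.02, with 20.9% of 1711 lower.

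Ranked by fold change among called genes of 5 FPKM or more whose groups were apart, the top 10 held 4 genes that kept their call under every alternative. Of these, Cyp4a14 is described above, and its relative Cyp4a32 had 10.02, 10.2 and 13.6 CPM with CBLB502, against 1.37, 1.44 and 0 CPM in control (adjusted p = 0.00246). The others were the secretory carrier membrane protein gene Scamp4 at 38.6, 34.4 and 39.7 CPM with CBLB502, against 7.94, 0.228 and 0.575 CPM in control (log2 change 3.88 ± 0.80, adjusted p = 0.00637), and Lrrc19 (ENSMUSG00000049799, chromosome 4, 94636653 to 94650144), a leucine-rich repeat receptor of kidney and gut, at 161, 200.1 and 184 CPM with CBLB502, against 13.9, 23.5 and 14.7 CPM in control (log2 change 3.38 ± 0.28, adjusted p = 5.28e-05). Scamp4 and Lrrc19 overlap other annotated genes and are uncertain. Of the rest, the glucuronosyltransferase gene Ugt1a10 had no count in control and was at least 285-fold higher (0.00155 adjusted p, 3 counts over the control group as floor). Ugt1a2 had 1.47, 18.3 and 13.7 CPM with CBLB502, against 0, 0 and 0.575 CPM in control (adjusted p = 0.0118). Both overlap their neighbours in the annotation. Adnp, which overlaps a predicted gene, had 104, 94.1 and 90.6 CPM with CBLB502, against 0.153, 0 and 0 CPM in control (adjusted p = 0.00291). It had 0.310 CPM in combination library 6, beside 68.6 and 64.7 CPM in the other combination libraries. Abca13, B3gnt2 and Slco4c1 completed the 10, at log2 fold changes of 3.97, 3.73 and 3.46. The calls of these 6 ended with limma-voom.

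The 10 genes with the lowest fitted fold change were all spermatid genes: Prm2, Tnp2, Ldhc, Akap4, Tnp1, Crisp2, Odf1, Gsg1, Spz1 and Fabp9. Each was without a count in CBLB502 libraries, so the fitted values give neither the size nor the order of these falls. Prm2 was at least 1765-fold lower and Fabp9 at least 442-fold (floor of 3 counts over the CBLB502 group). By the smallest p, the genes that rose were the prelamin protease gene Zmpste24, at 119, 115 and 122 CPM with CBLB502, against 24.1, 27.8 and 27.6 CPM in control (log2 change 2.16 ± 0.14, adjusted p = 1.06e-05), Nr1d2, Tmx1 for a disulfide enzyme (4.66-fold, 1.06e-05), the reticulophagy gene Retreg2 (4.02-fold, 1.89e-05) and the membrane insertion subunit gene Emc10 (4.597-fold, 2.17e-05). Those that fell were Mapk1ip1, at 16.8, 17.4 and 18.8 CPM with CBLB502, against 72.8, 63.5 and 80.2 CPM in control (log2 change -2.03 ± 0.15, adjusted p = 2.51e-05), the small RNA gene Rn7s6, Cfap69 (4.12-fold, 8.15e-05), the ribosomal S6 kinase gene Rps6kb2 (2.899-fold, 0.000117) and Fos. Mapk1ip1 and Rps6kb2 overlap neighbouring genes. Of 12 genes known to differ between male and female kidney 7 rose and none fell (median 1.95), against 11.5% and 7.48% over all genes. The list was not split by the sex in which its genes are higher. It was led by Cyp4a14, the P450 gene Cyp4b1 at 2370, 2282 and 3171 CPM with CBLB502, against 215, 496 and 545 CPM in control (log2 change 2.64 ± 0.35, adjusted p = 0.00065), and Slc22a7.

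Whether kidney answered differently from liver was tested as the difference between the CBLB502 effects of both organs, each against its own controls, in a single fit of 24 libraries. The liver libraries differ in kind as well, with 69.298% to 72.236% mitochondrial counts in control and 6.726% to 7.105% with CBLB502. Outside mitochondrial genes and pseudogenes, liver control libraries held 2.82 to 4.65 M counts and liver CBLB502 libraries 48.6 to 52.45 M. Treatment and kind of library cannot be told apart in liver either. The part of library kind in the organ difference was not tested. In liver alone 26.6% of 18381 tested genes were called, 17.2% higher and 9.43% lower. Of 22723 genes tested for the difference 1570 were called (6.91%), 774 higher in kidney (3.41%) and 796 lower (3.5%). The higher count was 190, 212 and 264 without liver CBLB502 1, 2 or 3, and the lower count 373 and 393 without kidney CBLB502 5 or 4. Of nuclear respiratory chain genes 27 of 48 had a lower effect in kidney than in liver and none a higher one, with 37 of 48 called higher in liver by itself and 11 in kidney. Fatty acid oxidation genes had 7 of 31 lower in kidney, with 23 called higher in liver and 14 in kidney, and cholesterol and fatty acid synthesis genes 6 of 33, with 19 called higher in liver and 8 in kidney. In liver 8 of 19 tested immediate-early genes fell. Of the transporter genes Abcc4 alone was called for the difference, with an effect of 2.10 in kidney and -0.41 in liver (2.61, adjusted p = 0.0365), and among proximal tubule genes Slc3a1 had the higher effect in kidney, at 2.61 in kidney and 0.90 in liver (1.80, adjusted p = 0.0326), and Fbp1, an enzyme of glucose synthesis, the lower, at 0.93 in kidney and 2.56 in liver (-1.52, adjusted p = 0.0368). Nr1d1 rose less in kidney, by 1.75 on the log2 scale, than in liver, by 3.85 (-2.00, adjusted p = 0.0195). The organ effects come from a fit of each organ and the differences in brackets from the fit of 24 libraries, so they do not subtract exactly.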

How the data were processed

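Total RNA of mouse liver and kidney was isolated with Trizol, per the labels' protocols, and sequenced after a routine Illumina library preparation. The authors deposited raw counts per gene for 24 libraries in 1 table of 33272 gene IDs, beside FPKM values made by the authors, per the file headers. The 24 count columns were used, matched to samples by tissue and treatment, and none of the authors' FPKM columns was used, including 9 that were not assigned to a sample. Cutadapt 1.9 and FastQC are named in the submitters' processing notes. The aligner, counter, annotation, strand setting and genome build are not given in the sources used here. Of the IDs 99.65% are in GENCODE vM21 (GRCm38), all on the same chromosome, and coordinates are as deposited. Without strand, genes that overlap others are uncertain.

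From the counts, 37 mitochondrial genes and 7 pseudogenes were removed. The 12 kidney libraries were scaled by TMM, filtered with filterByExpr and fitted together in edgeR 4.0.16 (R 4.3.3; glmQLFit, glmQLFTest), with CBLB502 minus control as the contrast and Benjamini-Hochberg adjustment at 0.05. The kidney and liver effects were compared in all 24 libraries. CPM uses TMM-scaled library sizes, and FPKM here was computed from CPM and exon length. Alternatives used DESeq2 1.42.0, limma 3.58.1 (voom, and log2 of FPKM plus 1 or 0.1), other scalings, thinning to 5.05 M counts, and leaving out each library. An offset for gene length was added after seeing the data. The edgeR steps were tested on simulated data. Exact permutation tests used scipy 1.17.1.

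The comparison, its 43 gene lists (865 of 872 genes in the table) and 13 spermatid genes were chosen with earlier results of these data known. Named genes are the 10 called genes with the largest and the 10 with the smallest fold change (at least 5 FPKM in the higher group, groups apart, no predicted models, pseudogenes or symbols on several IDs), the 5 with the smallest p each way, up to 3 called members of each list, 14 genes whatever their result, and further list members picked for the text. Some genes that this rule names are not reported here.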

Additional observations from a re-analysis of the deposited data

Results flagged for a closer look

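For the genes below the CBLB502 effect differed between kidney and liver by the test of the difference itself (edgeR, 24 libraries, adjusted over 22723 genes). Values are kidney minus liver differences on the log2 scale, and no explanation was tested.

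Among genes of kidney function, the effect was higher in kidney for Ace (3.98, adjusted p = 0.00361), Scnn1a (2.91, adjusted p = 0.0443), Abcc4 (2.61, adjusted p = 0.0365) and Slc3a1 (1.80, adjusted p = 0.0326). Ace had mean levels of 184.9 CPM in CBLB502 kidneys, against 31.9 CPM in control kidneys, and 0.928 CPM in CBLB502 livers, against 2.37 CPM in control livers. Crp (5.37, adjusted p = 0.0434) was also on the kidney side. The differences of Mapk1ip1 (1.30, adjusted p = 0.00276) and Rps6kb2 (1.10, adjusted p = 0.0224) were positive too, although both genes fell in kidney, as given above.

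The effect was lower in kidney for the metabolic genes Sdha (-1.23, adjusted p = 0.0148), Atp5g3 (-1.18, adjusted p = 0.0223), Cox5a (-1.07, adjusted p = 0.00417), Cox8a (-0.83, adjusted p = 0.0223), Fasn (-3.57, adjusted p = 0.0431), Fbp1 (-1.52, adjusted p = 0.0368) and Gsta4 (-2.52, adjusted p = 0.0399). Tfam followed at -0.78 (adjusted p = 0.0447). The others on that side were Fn1 (-3.77, adjusted p = 0.00258), Atf6 (-1.55, adjusted p = 0.016), Nr1d1 (-2.00, adjusted p = 0.0195), Kif20a (-10.38, adjusted p = 0.00466) and the spermatid gene Crisp2 (-15.47, adjusted p = 0.0323). Fn1 averaged 34.7 CPM in CBLB502 kidneys, against 206.7 CPM in control kidneys, and 1086 CPM in CBLB502 livers, against 439.5 CPM in control livers.

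The naming rule (at least 5 FPKM in a group, groups apart in kidney or liver, tested in each organ by itself) added 5 genes on each side. On the kidney side these were Gfap (9.53, adjusted p = 0.0126), Gckr (9.26, adjusted p = 0.000401), Ces3b (9.22, adjusted p = 0.0112), Mug2 (9.14, adjusted p = 0.00293) and Abcb11 (8.57, adjusted p = 0.0428). All but Gfap are abundant in liver and had no count in control kidneys and about 1 CPM in CBLB502 kidneys. On the liver side they were Meig1 (-17.75, adjusted p = 0.00686), C1qtnf5 (-11.27, adjusted p = 0.00294), Cpt1b (-10.42, adjusted p = 0.0213), Irak1bp1 (-8.67, adjusted p = 0.00758) and Castor1 (-8.42, adjusted p = 0.017). These 5 had no count in control livers. Where a group had no count, the fitted value depends on the prior count, is no measure of size and ranks no gene.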

How the results depend on the processing

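Of 170 named genes called in the kidney comparison, 115 kept their call under every alternative with all libraries and 103 also without each library in turn, and none reversed. The count of genes called higher was 1480 with the length offset. The count called lower was 2620 with DESeq2, 2453 with the 6 libraries alone, 3801 on log2(FPKM + 1) and 3297 on log2(FPKM + 0.1). For the kidney and liver difference DESeq2 called 1521 higher and 1411 lower. With the length offset 3 distal convoluted tubule genes and 8 fatty acid oxidation genes rose. The cause of these moves was not tested.

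Without each library in turn, the higher calls ranged from 1382 to 1922 and the lower from 768 to 1372. The tissue differences ranged from 190 to 1002 higher and from 373 to 1395 lower. Calls among list members ranged from 7 to 15 (proximal tubule), 3 to 4 (distal convoluted tubule), 3 to 6 (podocytes), 6 to 10 (fatty acid oxidation), 4 to 8 (clock, higher) and 4 to 8 (injury, lower). The share of mitochondrial counts differed by -53.07 to -48.94 percentage points. No paired analysis was possible because the CBLB502 kidney columns are numbered 4 to 6 and the control columns 1 to 3. With 5.05 to 10.14 M counts outside mitochondrial genes, control libraries limit what low genes can show.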
